A study of Homo sapiens with 6 samples.

Results

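The transcripts described here are 10 genes that are switched on by, or feed back on, RAS-MAPK signalling: DUSP4, DUSP5, DUSP6, SPRY2, SPRY4, SPRED1, SPRED2, ETV4, ETV5 and PHLDA1. They were found in the gene count table by Ensembl gene identifier with the version removed, and all 10 were present among its 60649 rows. The counts came from OVCAR5, an established human epithelial ovarian cancer cell line, in 6 poly(A) RNA-seq libraries. In 3 libraries the cells carried a lentiviral METTL3 overexpression construct, and in the other 3 libraries they carried the empty-vector lentivirus, with puromycin selection in each arm. METTL3 is the catalytic subunit of the methyltransferase that writes N6-methyladenosine on RNA, and the comparison asks which transcripts differ when it is overexpressed. The cells were selected as stable lines, and no promoter for the transgene and no drug treatment is given in the labels. The labels call the controls parental in one place and empty-vector in another, and nothing says that the numbered libraries came from separate cultures, so p-values measure the spread between these 6 libraries, which may be technical.

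In this pathway growth factor receptors load RAS with GTP, RAS activates RAF, and RAF activates MEK and MEK activates ERK. Active ERK induces its own brakes: the DUSP phosphatases remove phosphate from MAP kinases, and the Sprouty (SPRY) and Spred (SPRED) proteins act on the RAS-RAF step. It also induces the ETS-family transcription factors ETV4 and ETV5 and relieves repression by CIC, so the RNA levels of these genes are widely read as a measure of pathway output.

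Promoter sequences are shown because these genes are read as a group that shares regulators. The RefSeq promoter table (GRCh38.p14, 250 bases before to 50 after each transcription start) held no promoter of DUSP4, DUSP5, ETV4 or ETV5. For the other 6 of the 10 genes it held 9 promoters. Each was searched on both strands for the CIC octamers TGAATGAA, TGAATGGA, TCAATGAA and TCAATGGA, the ETS core CCGGAA and the AP-1 site TGANTCA. The 3 promoters printed below have a CIC or ETS match, given in capitals on the gene's own strand, 5′ to 3′. DUSP6 lies at chr12:89352452-89352751, PHLDA1 at chr12:76031727-76032026 and SPRY2, in the promoter farthest upstream, at chr13:80341077-80341376, all on the minus strand.
DUSP6: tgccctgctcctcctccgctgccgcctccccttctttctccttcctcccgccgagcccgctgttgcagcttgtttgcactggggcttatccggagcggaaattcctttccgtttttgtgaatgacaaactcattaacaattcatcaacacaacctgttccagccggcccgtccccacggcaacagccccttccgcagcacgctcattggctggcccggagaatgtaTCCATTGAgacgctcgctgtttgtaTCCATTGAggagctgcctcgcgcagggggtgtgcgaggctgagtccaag
PHLDA1: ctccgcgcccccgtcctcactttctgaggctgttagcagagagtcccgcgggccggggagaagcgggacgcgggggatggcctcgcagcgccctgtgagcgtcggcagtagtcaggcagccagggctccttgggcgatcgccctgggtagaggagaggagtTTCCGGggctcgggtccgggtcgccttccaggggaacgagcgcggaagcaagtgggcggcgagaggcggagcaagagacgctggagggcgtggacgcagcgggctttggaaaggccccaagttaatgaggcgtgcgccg
SPRY2: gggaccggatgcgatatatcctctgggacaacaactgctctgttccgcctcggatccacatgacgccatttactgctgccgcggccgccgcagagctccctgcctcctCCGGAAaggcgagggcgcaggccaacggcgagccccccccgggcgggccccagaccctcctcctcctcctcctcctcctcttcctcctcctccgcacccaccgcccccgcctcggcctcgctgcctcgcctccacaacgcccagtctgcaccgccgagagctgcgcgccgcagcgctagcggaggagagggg
The DUSP6 promoter held a CIC octamer in reverse orientation at 2 positions, from -24 to -17 and from 2 to 9, counted from the first transcribed base as 1. At least 2 such octamers were found in 0.327% of the 35116 promoters in the table, and at least 1 in 3.77%. PHLDA1 and SPRY2 each held 1 ETS core, a sequence that 17.2% of the promoters contained. AP-1 matches were found at 2 positions of 1 SPRED2 promoter (chr2:65366729-65367028), where 7.71% of all promoters had at least 1 and 0.515% at least 2. These matches describe letters in a window and were not tested as binding sites.

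METTL3 RNA followed the labels. Its level was 152, 165 and 175 CPM (a gene's counts scaled to library size, here with TMM factors) in METTL3 replicates 1, 2 and 3, and 80.6, 68.6 and 71.6 in the vector replicates of the same numbers, a log2 fold change of 1.16 ± 0.117 (SE) with an adjusted p of 0.072 by edgeR over all 6 libraries. Total counts ranged from 96633925 to 125463386 per library. From 67.6% to 70.5% of the low counts were even, which would arise if both mates of a pair were counted, so the counts may carry less information than their size implies. Replicates 2 and 3 lay closer to each other than to replicate 1 in both groups (chi-square per degree of freedom over genes 11.4 and 11.9 within the 2 groups, against 99.4 to 220 for replicate 1 with another library of its group). The 2 replicate 1 libraries were not alike either, since METTL3 replicate 1 with vector replicate 1 gave 240, the largest value of any pair. Results are therefore given over all 6 libraries and also over replicates 2 and 3 alone, a choice made with earlier results of these data known.

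All 10 transcripts were well expressed, with 2001 to 32770 counts in a library, and all 10 passed the filter on low counts. Compared per length as TPM, which divides by exon length before scaling, PHLDA1 had the highest mean level over the 6 libraries at 190 TPM, followed by DUSP5 at 166 and DUSP6 at 119. ETV5 (76.2) and ETV4 (74.6) came next, ahead of SPRED2 (56.2), SPRED1 (50.3), DUSP4 (47.5), SPRY4 (45.2) and SPRY2 (38.7). Each gene's range over the libraries overlapped that of its neighbour in this order. Compared within each library, PHLDA1 was above DUSP5, DUSP6 above ETV5 and ETV4 above SPRED2 in all 6. The other neighbouring pairs changed order between libraries.

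DUSP4, which encodes a nuclear phosphatase that acts on ERK and other MAP kinases, was the member that separated the groups. Its level was 109, 103 and 100.3 CPM in METTL3 replicates 1, 2 and 3, and 55.9, 51.0 and 49.2 CPM in the matching vector replicates. The 3 METTL3 libraries lay above all 3 vector libraries without overlap, as for 8.47% of all genes. The means were 104 ± 4.54 and 52.0 ± 3.44 CPM (SD, n = 3 each). Within the same replicate number the METTL3 library held 1.95, 2.01 and 2.04 times the DUSP4 of the vector library, an order that 19.6% of all genes had in every replicate number. The log2 fold change over all 6 libraries was 1.00 ± 0.107 (SE), with an adjusted p of 0.0731 by edgeR's quasi-likelihood test over all genes, and an exact two-sided permutation test gave p = 0.1, the smallest that 3 against 3 libraries allow. The call depended on the fit: DESeq2 on the same libraries gave an adjusted p of 1.48e-13, edgeR without vector replicate 1 gave 0.00708, and the adjusted p ran up to 0.904 when another single library was left out, while the log2 fold change stayed between 0.94 and 1.06 under all 18 settings. Over replicates 2 and 3 alone DUSP4 rose by 1.02 ± 0.0545 on the log2 scale (adjusted p = 4.03e-08, edgeR).

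**Figure D1:**
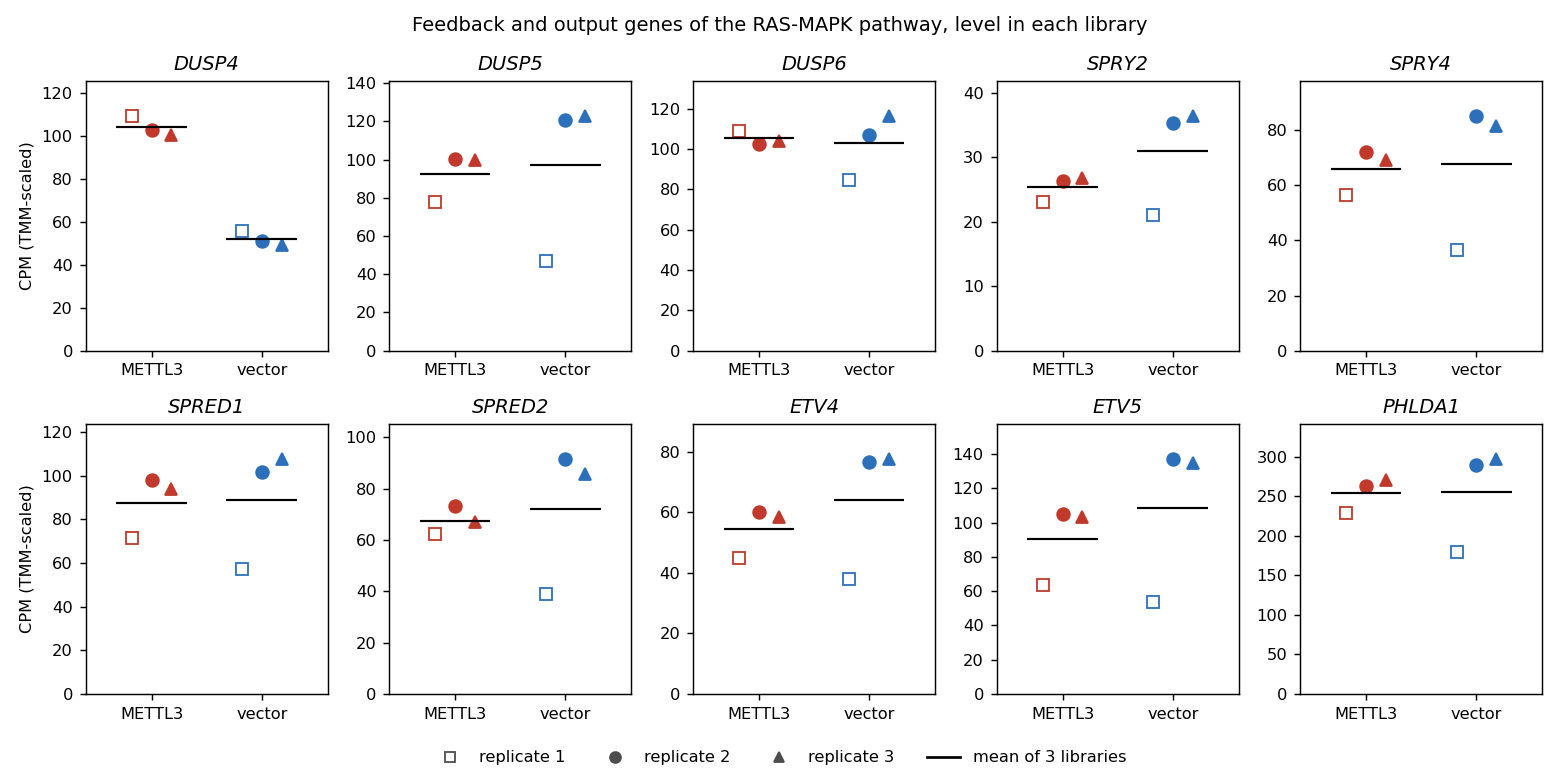
Level of each of the 10 genes in every library, in TMM-scaled CPM on a linear axis that starts at 0, with METTL3 libraries on the left and vector libraries on the right of each panel, points marked by replicate number and a bar at the group mean. DUSP4 is the panel in which the groups do not overlap, and in the other 9 panels vector replicate 1 is the lowest point.

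The other phosphatases in the set did not share that pattern. DUSP5, a nuclear ERK phosphatase, was at 77.9, 100.1 and 99.6 CPM in METTL3 replicates 1, 2 and 3 and at 47.2, 121 and 123 CPM in the vector replicates. The vector group thus held the lowest library and the highest, and the groups overlapped. Over all 6 libraries the log2 fold change was -0.07 ± 0.321 (adjusted p = 0.964), whereas in replicates 2 and 3 DUSP5 fell by 0.29 ± 0.0517 (adjusted p = 0.00148). DUSP6, the cytoplasmic ERK phosphatase whose promoter carried the CIC octamers, varied least of these 9 genes between vector libraries, relative to its mean. It was at 109, 103 and 104 CPM with METTL3 and at 84.8, 107 and 116 CPM with the vector, with log2 fold changes of 0.04 ± 0.135 over all libraries (adjusted p = 0.952) and -0.11 ± 0.0570 in replicates 2 and 3 (adjusted p = 0.225). Of its exonic bases, 28.6% lie opposite an antisense gene, and since the strand setting of the counting is not given, reads of the pair cannot be told apart.

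The Sprouty and Spred transcripts encode inhibitors of the RAS-RAF step, the Spreds through the RAS GTPase activating protein NF1. SPRY2 was at 23.04, 26.4 and 26.8 CPM in METTL3 replicates 1, 2 and 3 and at 21.1, 35.3 and 36.4 CPM in the vector replicates. SPRY4 was at 56.5, 72.0 and 69.1 CPM with METTL3 and at 36.6, 85.0 and 81.6 CPM with the vector. In each gene vector replicate 1 was the lowest library and vector replicates 2 and 3 were the highest. SPRED2 had the same order, with 62.4, 73.0 and 67.1 CPM against 38.9, 91.4 and 85.7 CPM. SPRED1 was at 71.4, 97.8 and 93.7 CPM with METTL3 and at 57.0, 102 and 107 CPM with the vector, so that its replicates 2 and 3 lay close together in the 2 groups. Over all 6 libraries none of these 4 genes passed the edgeR test, with log2 fold changes from -0.28 ± 0.205 for SPRY2 to -0.02 ± 0.237 for SPRED1. Within replicates 2 and 3, SPRY2 fell by 0.43 ± 0.0616 (adjusted p = 0.000218), SPRED2 fell by 0.34 ± 0.0600 (adjusted p = 0.00135) and SPRY4 fell by 0.24 ± 0.0550 (adjusted p = 0.00797). SPRED1 did not pass there, at -0.13 ± 0.0556 (adjusted p = 0.149).

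ETV4 and ETV5 encode ETS-family activators of the PEA3 group, and PHLDA1 encodes a pleckstrin homology-like protein induced by ERK signalling. ETV5 was at 53.5 CPM in vector replicate 1 against 137 and 135 CPM in vector replicates 2 and 3, and at 63.4, 105 and 103 CPM in the METTL3 replicates. ETV4 was at 45.0, 60.0 and 58.5 CPM with METTL3 and at 38.1, 76.8 and 77.5 CPM with the vector. In both genes replicate 1 was the lowest library of its group, and vector replicates 2 and 3 lay above every METTL3 library. Over all 6 libraries the log2 fold changes were -0.23 ± 0.260 for ETV4 (adjusted p = 0.802) and -0.26 ± 0.346 for ETV5 (adjusted p = 0.834). In replicates 2 and 3, ETV5 fell by 0.39 ± 0.0515 (adjusted p = 0.00012) and ETV4 fell by 0.38 ± 0.0543 (adjusted p = 0.000221). PHLDA1 was at 229, 262 and 271 CPM with METTL3 and at 179, 290 and 297 CPM with the vector. It had the same order of libraries but passed neither test, at -0.01 ± 0.195 over all libraries (adjusted p = 0.995) and -0.14 ± 0.0510 in replicates 2 and 3 (adjusted p = 0.0855). Opposite-strand genes cover 9.35% of PHLDA1 exonic bases (PHLDA1-AS1) and 1.93% of ETV4 (DHX8), and DGKG on the same strand covers 2.84% of ETV5.

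Counted over the set, none of the 10 genes passed the edgeR threshold of adjusted p under 0.05 over all 6 libraries, where 0% of the 22038 genes tested did. At an unadjusted p under 0.05 DUSP4 was the 1 member counted, against 8.3% of all genes. The median log2 fold change was -0.05 for the members and -0.02 for all genes. All 3 METTL3 libraries lay above all 3 vector libraries for 1 member, against 8.47% of all genes, and below them for 0, against 8.93%. DESeq2 on the 6 libraries called 1 member, DUSP4, against 1.27% of all genes. In replicates 2 and 3, edgeR called 7 members, against 15.2% of 22046 genes: 1 was higher with METTL3 (6.66% of all genes) and 6 were lower (8.59%). There the median was -0.26 for the members and -0.0033 for all genes. The same count of 7 was obtained by DESeq2 on those 4 libraries (14.7% of all genes) and after the trends with GC content and transcript length were removed (21.4%), the latter being the setting in which the higher and lower calls over all genes moved from 1469 and 1893 to 2690 and 2015. Those counts rest on 2 libraries per group.

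**Figure D2:**
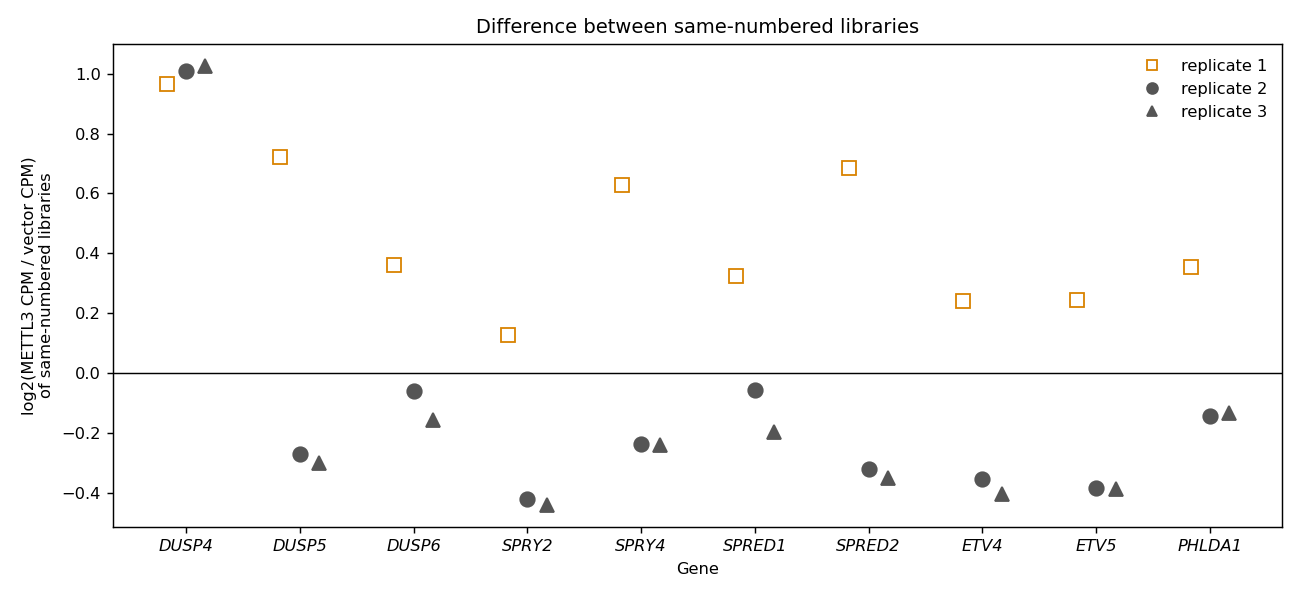
Difference between METTL3 and vector libraries of the same replicate number, as log2 of the ratio of their CPM, for each gene, with squares for replicate 1, circles for replicate 2 and triangles for replicate 3. All 3 DUSP4 symbols lie near 1, whereas each of the other 9 genes has its square above 0 and its circle and triangle below 0.

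The order of the libraries was alike in 9 of the 10 genes. In replicate 1 the METTL3 library exceeded the vector library for all 10 genes, by a log2 ratio of 0.13 to 0.96 (median 0.36). For replicates 2 and 3 the METTL3 library was lower for 9 genes, with a median log2 ratio over the 10 of -0.26 and -0.27. This crossing, higher in replicate 1 and lower in replicates 2 and 3, was found in 9 members and in 15.5% of all genes. Vector replicate 1 was the lowest of the 6 libraries for the same 9 genes, against 24.7% of all genes. METTL3 replicate 1 was the next lowest for 8 of them, against 9.2% of all genes, and the exception was DUSP6. METTL3 replicates 2 and 3 both lay below vector replicates 2 and 3 for 9 members, against 28.2% of all genes. The combination of METTL3 above vector in replicate 1, vector replicate 1 lowest and METTL3 replicates 2 and 3 below vector replicates 2 and 3 was met by 9 members and by 7.56% of all genes. It joins features already given for these 9 members, and those features overlap. Its count in the members therefore follows from them and is not a further result. These features were also frequent elsewhere in the pathway: vector replicate 1 was lowest for 10 of 12 transcription regulators, 13 of 21 core cascade genes and 7 of 12 other ERK output genes, and the combination was met by 5 of 13 paralogs of the members and 4 of 12 transcription regulators.

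The difference between the replicate numbers was tested in fits over all 6 libraries. With group in the fit, replicate 1 was lower than replicates 2 and 3 for 3 members, against 4.81% of all genes: ETV5 fell by 1.02 ± 0.149 (adjusted p = 0.0104), ETV4 fell by 0.70 ± 0.145 (adjusted p = 0.0306) and SPRED1 fell by 0.64 ± 0.122 (adjusted p = 0.0233) on the log2 scale. The median over the members was -0.65, and that over all genes was 0.04. This count depended on the fit, since 7 members were lower once the GC and length trends were removed, against 8.88% of all genes. The replicate 1 coefficient joins 2 groups that differed. Replicate 1 over the mean of replicates 2 and 3 had a median log2 ratio over the 10 members of -0.27 with METTL3 and -0.95 with the vector. For DUSP6 the METTL3 ratio was 0.076 and the vector ratio -0.40. The METTL3 difference itself was larger in replicate 1 than in replicates 2 and 3 for 9 members, against 14.7% of all genes (30.2% in either direction), by an interaction term. It was largest for SPRED2, at 1.02 ± 0.106 (adjusted p = 3.96e-05), and DUSP5, at 1.01 ± 0.0894 (adjusted p = 1.64e-05), and smallest for SPRED1, at 0.45 ± 0.0955 (adjusted p = 0.00304). For DUSP4 the term was -0.05 ± 0.0922 (adjusted p = 0.726), and it was -0.30 ± 0.0751 (adjusted p = 0.00648) once the GC and length trends were removed. Replicate 1 is 1 library per group, so the interaction values compare those libraries with the spread of replicates 2 and 3, on 2 residual degrees of freedom.

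**Figure D3:**
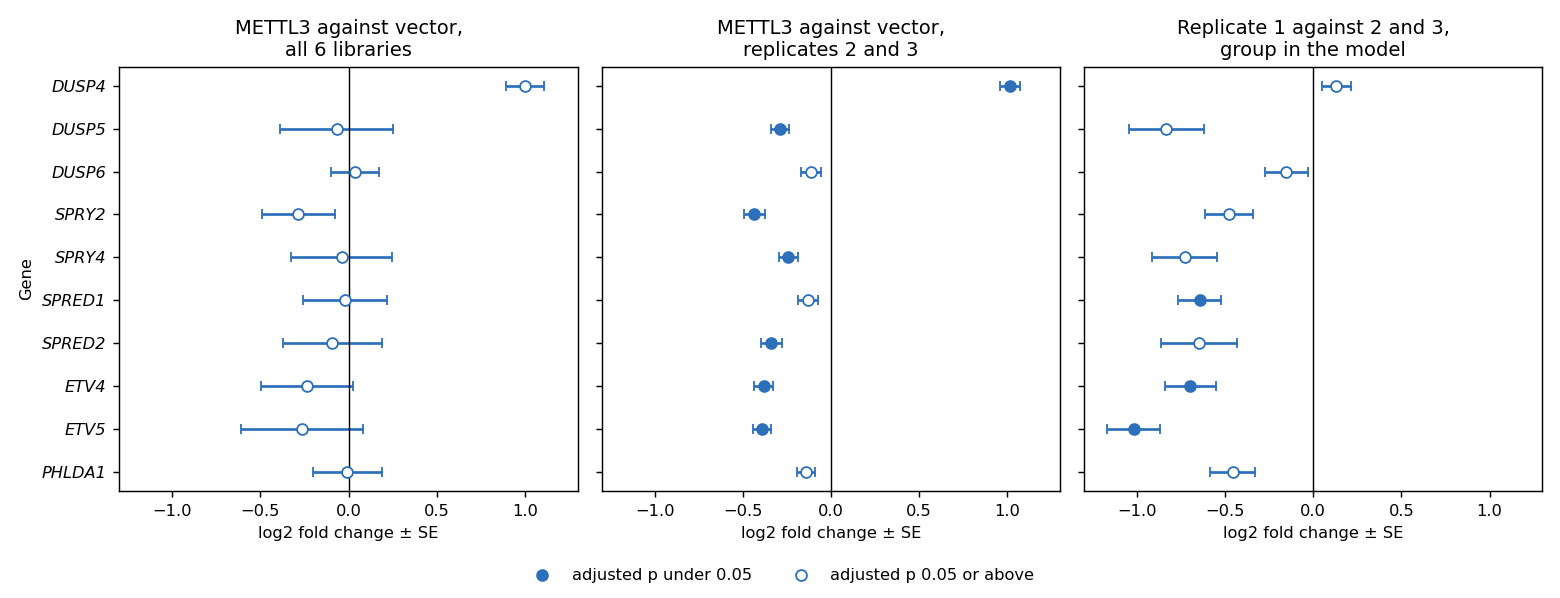
Log2 fold changes with their standard errors from edgeR for the 10 genes in the METTL3 comparison over all 6 libraries, in the same comparison over replicates 2 and 3, and for replicate 1 against replicates 2 and 3, with filled points where the adjusted p was under 0.05. No point is filled over all 6 libraries, 7 are filled in replicates 2 and 3, and 3 are filled for replicate 1.

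Lists of 66 further genes of the pathway were read in the same fits, and the genes named from them, apart from those with the 3 smallest p-values per list over all libraries, were picked after their values were seen. Over all 6 libraries edgeR called 0 of the 66, against 0% of all genes, and DESeq2 called 0, against 1.27%. The unadjusted edgeR p was under 0.05 at 7 of the 66, against 8.3% of all genes. In replicates 2 and 3 edgeR called 22, of which 7 were higher and 15 lower. The shares over all genes to set beside the list counts in replicates 2 and 3 are 15.2% called, 6.66% higher and 8.59% lower. The paralogs of the members had a similar count, with 1 of 13 higher and 6 lower and the same median of -0.26. Among them DUSP9, a cytoplasmic ERK phosphatase, fell by 0.69 ± 0.0872 (adjusted p = 7.88e-05) and ETV1, the third PEA3 factor, fell by 0.33 ± 0.0583 (adjusted p = 0.00122), while DUSP10, a phosphatase that prefers p38 and JNK, rose by 0.65 ± 0.0929 (adjusted p = 0.000229). SPRED3 fell by 0.84 ± 0.0788 (adjusted p = 6.25e-06). DUSP9 and ETV1 also lay below in all 3 METTL3 libraries, as 8.93% of all genes did, at 6.01, 7.08 and 7.16 CPM against 7.57, 11.6 and 11.4 CPM for DUSP9.

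The core cascade from adaptors to ERK and RSK had 3 of 21 genes called in replicates 2 and 3, a share near the 15.2% of all genes, with 1 higher, 2 lower and a median of 0.00. RPS6KA3, an ERK-activated kinase of the RSK family, fell by 0.24 ± 0.0586 (adjusted p = 0.0125). Its relatives RPS6KA1 and RPS6KA2 did not pass, at 0.14 ± 0.0623 (adjusted p = 0.158) and 0.10 ± 0.0733 (adjusted p = 0.431). Of the 8 RAS GTPase activating proteins, which switch RAS off, 2 were higher (RASAL1 by 0.38 ± 0.0932, adjusted p = 0.0119, and RASA1 by 0.25 ± 0.0543, adjusted p = 0.00524) and RASA3 was lower, beside 6.66% and 8.59% of all genes, with a list median of 0.11. DAB2IP was at 0.12 ± 0.0681 (adjusted p = 0.276).

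Other ERK output genes were split, with 2 of 12 higher (6.66% of all genes), 4 lower (8.59%) and a median of -0.05 in replicates 2 and 3. The cytokine LIF rose by 0.29 ± 0.0526 (adjusted p = 0.00164) and the uridine phosphorylase UPP1 rose by 0.27 ± 0.0570 (adjusted p = 0.00447). For each the METTL3 libraries lay above all vector libraries, as for 8.47% of all genes. For UPP1 the gap was small, with 60.4 CPM in METTL3 replicate 2 against 59.9 CPM in vector replicate 1. IER3 and MYC had that order too but did not pass, IER3 at 0.16 ± 0.0616 (adjusted p = 0.101). The 4 lower genes were the Ephrin receptors EPHA4 and EPHA2, the immediate early factor EGR1 and the chromatin protein HMGA2, of which EPHA4 fell by 0.71 ± 0.130 (adjusted p = 0.00218). Among 12 transcription regulators of such genes, 1 was higher and 2 lower, beside the same shares of all genes, with a median of -0.02: the ETS repressor ETV6 rose by 0.21 ± 0.0565 (adjusted p = 0.023), and ETS2 and ELK3 fell by 0.34 ± 0.0603 (adjusted p = 0.00132) and by 0.28 ± 0.0513 (adjusted p = 0.00178). ATXN1L, a partner of CIC, was at 0.15 ± 0.0560 (adjusted p = 0.0921). CIC itself was at 121 and 106 CPM with METTL3 and at 121 and 103 CPM with the vector in replicates 2 and 3, and at 104 against 44.2 CPM in replicate 1.

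**Figure D4:**
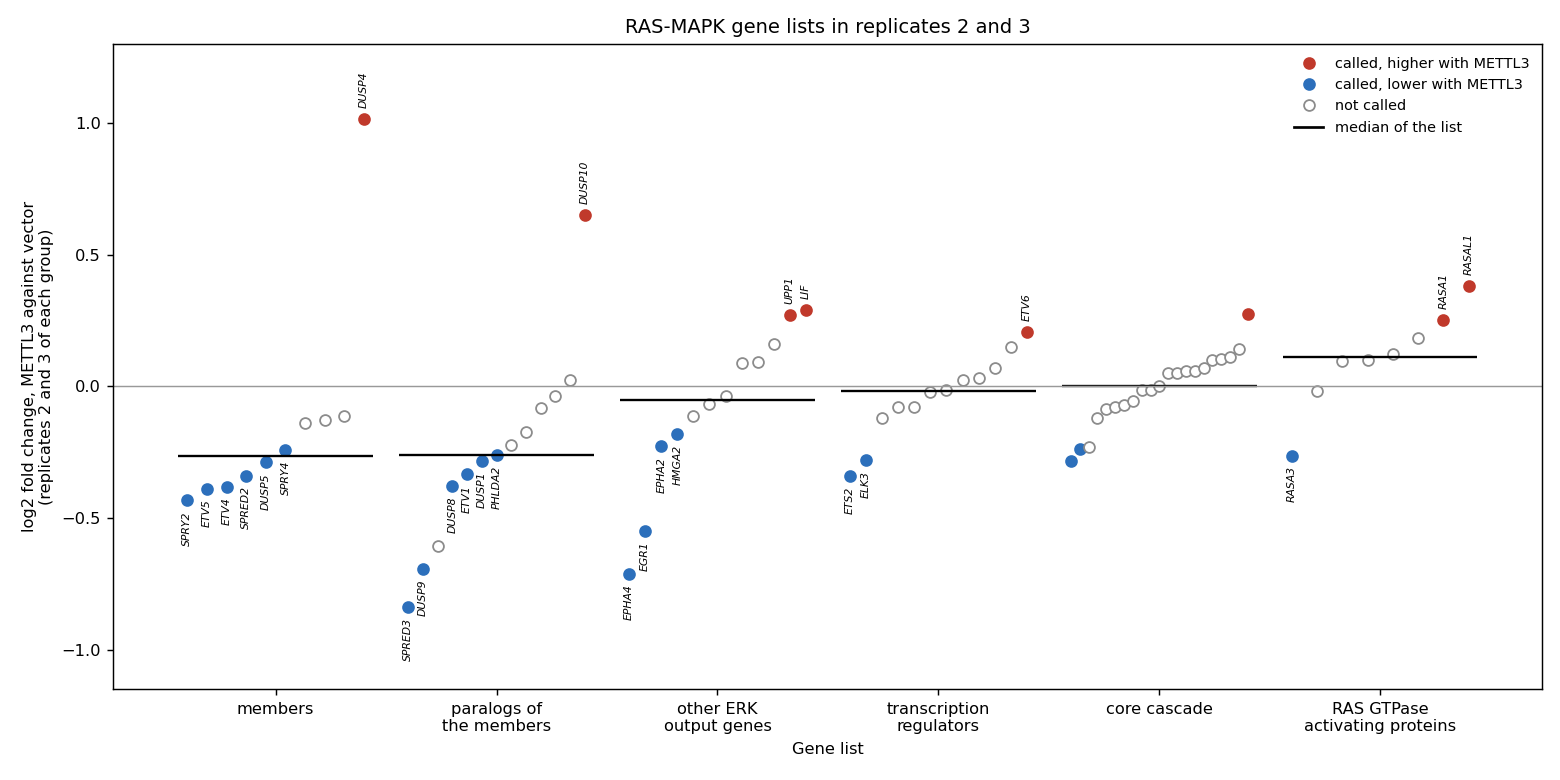
Log2 fold change in replicates 2 and 3 for each gene of 6 lists, the 10 members and the 66 further pathway genes, sorted within a list, with filled points where the adjusted p was under 0.05, names beside filled points outside the core cascade, and a bar at the list median. The members and their paralogs have medians of -0.26, with DUSP4 and DUSP10 far above the rest, and the other 4 medians lie between -0.05 and 0.11.

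In sequence the 10 transcripts were a mixed group. The longest annotated transcript of each (GENCODE 44) ranged from 2335 bases for ETV4 to 7270 bases for SPRED1, with a median of 4300.5 against 3798 over the protein-coding genes tested. GC content ranged from 36.3% for SPRED1 to 60.6% for ETV4, with a median of 49.4% against 48.8%. The DRACH sequence, the consensus at which METTL3 methylates adenosine, occurred 15.7 to 22.5 times per kb, with a median of 17.95 against 18.7. DUSP4 had 17.3 per kb and ETV5 had the highest density of the set. These are counts of letters, and methylation was not measured in these libraries.

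The markers of the cell type moved between the libraries too. The epithelial markers EPCAM, KRT8, KRT18, KRT19 and CDH1 summed to 6912 to 7906 CPM with METTL3 and 5593 to 8834 CPM with the vector. The sum was mostly KRT8 and KRT18. Its highest value was in vector replicate 1, the library in which 9 members were lowest. EPCAM, KRT8, KRT18 and KRT19 were each highest there. CDH1 was not: it was at 439, 358 and 346 CPM in METTL3 replicates 1, 2 and 3 and at 201, 184 and 189 CPM in the vector replicates. In replicates 2 and 3 all 5 epithelial markers were called higher with METTL3, against 6.66% of all genes. The ovarian marker PAX8 was low, at 6.38 to 11.6 CPM. Of the fibroblast markers, COL1A2 was near 0 and the list summed to 17.3 to 19.8 CPM with METTL3 and 8.90 to 20.1 CPM with the vector. Of the immune markers, PTPRC and CD3E were near 0, and the list, nearly all LYZ, summed to 28.2 to 36.4 and 33.7 to 57.1 CPM. Endothelial VWF and CDH5 stayed under 1 CPM in every library, and that list, nearly all PECAM1, summed to 7.99 to 22.1 and 5.15 to 8.17 CPM. The part of these markers in the members' values was not tested, and in bulk RNA fewer cells of a kind and less RNA per cell cannot be told apart.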

How the data were processed

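Poly(A) RNA from 6 OVCAR5 libraries was sequenced. Per the labels and the study's methods the authors used fastp, HISAT2 with hg38 and featureCounts from Subread, and the values used are these deposited raw counts, without normalization. The strand setting, tool versions and treatment of mate pairs are not given in the sources used here, and the sources differ on whether reads were single or paired-end.

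Groups and replicate numbers came from the sample titles, and every column matched a title. Of 60649 rows, 60463 were given a symbol by GENCODE 44 and the other 186 were kept by identifier. Counts were filtered with filterByExpr, scaled by TMM and tested with edgeR 4.0.16 (robust quasi-likelihood F test) in R 4.3.3, with Benjamini-Hochberg adjustment over all genes tested and a threshold of 0.05. Values are log2 fold changes ± SE, where the SE is the fold change divided by the square root of F. DESeq2 1.42.0 was an alternative. The scripts were tested on simulated counts. Single genes were also compared by an exact two-sided permutation test over 20 assignments. Same-numbered libraries were compared as pairs because their deviations from their group means correlated at 0.33, 0.12 and 0.17, each above 0.1. Differently numbered replicates 2 and 3 also correlated, at 0.13 and 0.21. METTL3 replicate 2 correlated more with vector replicate 3 (0.21) than with vector replicate 2 (0.12), so that pairing is not settled. The METTL3 tests had no pairing term, apart from the fit with the replicate number as a block. Totals of 96633925 to 125463386 counts make counting error small beside the spread between libraries. Genes named by rule were the members, METTL3, cell type markers and, per pathway list, the 3 with the smallest unadjusted p over all libraries. The other pathway genes named were picked after their values were seen. The members and lists were chosen with earlier results of these data known. Results for some items covered by that rule are not reported here.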

Additional observations from a re-analysis of the deposited data

Results flagged for a closer look

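For 9 genes the METTL3 difference was not the same in replicate 1 as in replicates 2 and 3, by the interaction term of the edgeR fit. On the log2 scale it was larger in replicate 1 by 1.02 for SPRED2 (adjusted p = 3.96e-05), 1.01 for DUSP5 (adjusted p = 1.64e-05), 0.87 for SPRY4 (adjusted p = 5.67e-05), 0.63 for ETV5 (adjusted p = 0.000212) and 0.62 for ETV4 (adjusted p = 0.00034). It was larger by 0.56 for SPRY2 (adjusted p = 0.00172), 0.49 for PHLDA1 (adjusted p = 0.000891), 0.47 for DUSP6 (adjusted p = 0.00247) and 0.45 for SPRED1 (adjusted p = 0.00304). In each the METTL3 library was above the vector library in replicate 1 and below it in replicates 2 and 3. Over all genes 30.2% had a difference of this kind in either direction, so it was common in these libraries. Each value rests on 1 library per group at replicate 1.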

How the results depend on the processing

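Over all 6 libraries, DUSP4 kept its direction under every setting tried, and no setting other than DESeq2, no filter on low counts, leaving out vector replicate 1 and the choice of replicates 2 and 3 brought it past the threshold. The number of genes called rose from 0 to 280 by DESeq2, 560 with no filter on low counts, 3362 in replicates 2 and 3, and, by alternatives chosen after seeing the data, to 1 with GC and length trends removed, 4705 in replicates 2 and 3 with those trends removed and 3233 in replicates 2 and 3 by DESeq2. The number of members called was 1 by DESeq2 and with no filter, and 7 in each fit of replicates 2 and 3. The number of pathway genes called was 1 with no filter, 22 in replicates 2 and 3 by edgeR and by DESeq2, and 29 there with trends removed. Leaving out 1 library gave 0 to 367 genes, 0 to 1 members and 0 to 2 pathway genes, and the highest of each came without vector replicate 1. For replicate 1 against replicates 2 and 3, DESeq2 called 3571 genes and 8 members, no filter 4220 and 8, and trend removal 3273 and 7, in place of 1997 and 3. Interaction calls stayed within 5890 to 6723 genes and 9 to 10 members, but trend removal changed the genes higher and lower from 3242 and 3410 to 2062 and 3970.

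The sign of small fold changes was not stable. DUSP6 was -0.11 in replicates 2 and 3, -0.081 with trends removed there and -0.10 by DESeq2 there. SPRED1 was 0.00050 with at least 10 counts in every library, 8.8e-05 with counts divided by 2 and 0.027 with trends removed. PHLDA1 was 0.0050 by DESeq2, 0.0050 with RLE factors, 0.0090 with no filter, 0.013 with at least 10 counts, 0.013 with counts divided by 2 and 0.0021 with trends removed. Leaving out 1 library moved the log2 fold change between -0.40 and 0.15 for DUSP5, -0.085 and 0.16 for DUSP6, -0.34 and 0.18 for SPRY4, -0.26 and 0.16 for SPRED1, -0.39 and 0.13 for SPRED2, and -0.21 and 0.14 for PHLDA1. With the replicate number as a block, so that same-numbered libraries were paired, 0 genes were called and the values were 0.046 for DUSP5, 0.047 for SPRY4, 0.023 for SPRED1 and 0.026 for PHLDA1. The block changed no call. The cause of these changes was not tested.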

Other observations

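Of the pathway genes outside the set, 3 are given for how they varied between replicate numbers, chosen after their values were seen. EGR1, an immediate early transcription factor, was at 34.1, 20.5 and 19.8 CPM in METTL3 replicates 1, 2 and 3 and at 12.8, 29.7 and 29.2 CPM in the vector replicates, and its METTL3 difference was larger in replicate 1 by 1.96 ± 0.113 on the log2 scale (edgeR, adjusted p = 2.23e-06). DUSP8, a phosphatase that acts on JNK and p38, was at 6.77, 6.63 and 6.21 CPM against 2.46, 8.44 and 8.25 CPM, with a difference of 1.84 ± 0.184 (adjusted p = 3.1e-05). FOSL1, an AP-1 subunit induced by ERK, followed the replicate number and not the group: it was at 145 and 136 CPM in METTL3 and vector replicate 1, and between 288 and 320 CPM in the other 4 libraries, where the METTL3 difference in replicates 2 and 3 was -0.07 ± 0.0554 (adjusted p = 0.51).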
